A study of Mus musculus with 8 samples.

Results

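The Ly49 receptor family was followed through the lymphocytes of mouse liver after systemic β-glucan (BG). Its 8 members, Klra1, Klra3, Klra4, Klra5, Klra6, Klra7, Klra8 and Klra9, were taken by gene symbol from the 32285 genes of the count tables. No measured value was a criterion of that choice, although earlier results of these data were known when it was made. Each of the 8 scRNAseq libraries was made from the liver of 1 mouse, and all mice were females of the C57BL/6J strain, 9 weeks old. The 4 Control mice (replicates 1 to 4) were untreated, and the 4 BG mice (replicates 5 to 8) received 1.2 mg of BG intravenously and were examined on day 2. A library pooled leukocytes selected by CD45 with gradient-purified cells of the unselected fraction. BG is a soluble polysaccharide of yeast that myeloid cells recognise, and the comparison of both groups asks whether lymphocyte receptors that read MHC class I differ after it.

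Ly49 receptors are lectin-like dimers encoded in the natural killer gene complex, and most of them bind MHC class I on neighbouring cells. Inhibitory members carry a tyrosine motif that recruits the phosphatase SHP-1 (Ptpn6), whereas activating members signal through the adaptor DAP12 (Tyrobp). Each NK cell transcribes a partly random subset of the locus, and some memory and innate-like T cells use the same genes. In this strain Klra4 (Ly49D) and Klra8 (Ly49H, which recognises a glycoprotein of mouse cytomegalovirus) are the activating members. Klra1 (Ly49A), Klra3 (Ly49C), Klra5 (Ly49E), Klra6 (Ly49F), Klra7 (Ly49G) and Klra9 (Ly49I) are inhibitory.

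All 8 genes lie on the minus strand of chromosome 6 in GRCm38, the mm10 build to which the authors aligned their reads. In order of position they are Klra5 (chr6:129898996-129917650), Klra6 (chr6:130013033-130026954), Klra4 (chr6:130043731-130067271), Klra8 (chr6:130115226-130129898), Klra9 (chr6:130178675-130193112), Klra7 (chr6:130218605-130233322), Klra3 (chr6:130323289-130337574) and Klra1 (chr6:130363917-130386874). No other annotated gene overlapped any of them. The members are close copies, so the exons were searched for stretches of 90 bases shared exactly with another gene of the annotation. Klra1, Klra4, Klra5 and Klra6 shared none. The shared part was 16.1% of such stretches in Klra8, 6.34% in Klra9, 3.33% in Klra7 and 2.83% in Klra3. Within the last 500 bases of the transcripts, which a 3' library reads, it was 0% in Klra8, 12.4% in Klra9, 6.57% in Klra7 and 5.15% in Klra3. The copies were mostly with Klra10 and the pseudogenes Klra11-ps, Klra13-ps and Klra14-ps, so levels of Klra9, Klra7 and Klra3 are less certain, and introns were not compared.

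The sequence around the RefSeq starts of the genes holds a stretch in which most of them are closely alike and Klra1 parts from the rest. RefSeq promoters (GRCm38.p6) run from 250 bases before to 50 bases after each gene's start, and the stretches printed are the 52 bases of each that best match the same stretch of Klra6. That stretch was picked as the 52 bases of the Klra6 promoter with the highest summed identity to the other members. Identities in it are thus high by choice and do not measure the whole promoters. Capitals mark CTTTGAT, the core bound by TCF/LEF factors (Tcf7 among them), on the printed strand. Whole promoters were searched for it on both strands.
Klra5: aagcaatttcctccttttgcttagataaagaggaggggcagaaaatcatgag
Klra6: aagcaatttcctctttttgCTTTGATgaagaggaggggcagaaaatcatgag
Klra4: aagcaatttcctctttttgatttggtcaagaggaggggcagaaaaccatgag
Klra8: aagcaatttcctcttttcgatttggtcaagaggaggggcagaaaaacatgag
Klra9: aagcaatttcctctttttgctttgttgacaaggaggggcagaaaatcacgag
Klra7: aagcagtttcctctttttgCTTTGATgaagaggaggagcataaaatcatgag
Klra3: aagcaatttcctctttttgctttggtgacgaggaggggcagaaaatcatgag
Klra1: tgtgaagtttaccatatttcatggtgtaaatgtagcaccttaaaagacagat
In the order of the lines, all on the minus strand, these lie at chr6:129913269-129913320, chr6:130027028-130027079, chr6:130067305-130067356, chr6:130129933-130129984, chr6:130193105-130193156, chr6:130233366-130233417, chr6:130337600-130337651 and chr6:130387006-130387057. The stretch of Klra5 lies inside the span given for that gene, whose RefSeq start used here differs from the annotated one. The other 6 members were 90.4% (Klra8) to 96.2% (Klra3) identical to Klra6, and Klra1 was 44.2% identical, so that no counterpart of the stretch was found in its window. CTTTGAT stood in the promoter of Klra6, in 1 of the 2 RefSeq promoters of Klra7 and in 3.73% of 32851 promoters. TGTGGT, a core bound by RUNX factors, stood on either strand in the promoter of Klra1 alone among the members, and in 16.8% of all promoters. A match is a description of letters, not of binding.

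Cells were kept by the limits of the study's methods (200 to 2500 genes and at most 30% mitochondrial UMIs), which left 48465 of 127557 barcodes, 4330 to 7790 per library. BG replicate 5 had the most barcodes (27873) and the fewest kept cells (4330). Of the kept cells, 307 barcodes occurred in more than 1 library. No doublet caller was run, and doublets were limited only by the upper bound on genes and by allowing at most 1 UMI of B cell, macrophage, endothelial or plasmacytoid dendritic cell genes.

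Lymphocyte classes were set by UMIs of marker genes, with no Klra gene among them, and each name stands for its gate. NK lineage cells (1886) had no UMI of CD3 or TCR alpha genes and at least 2 of Ncr1, Klrb1c and Klre1. They comprised conventional NK (cNK) cells (719, with more UMIs of Eomes, Itga2, S1pr5, Itgam and Cma1), ILC1-like cells (867, with more of Cxcr6, Cd200r1, Itga1, Il7r and Rora), and ties. T cells comprised NKT-like cells (7586), memory-like CD8 T cells (1014), naive-like CD8 T cells (1314), CD4 T cells (1672) and gamma delta T cells (977). The T cells that no gate took (9015) were added as a class after the data had been seen and are called remaining T cells. Genes that the NK gates did not use were read as a check of the names. Prf1 (perforin) stood at 944 CPM (a gene's UMIs scaled to the UMI total of the class in a library) in cNK and 206 CPM in ILC1-like cells, and the T cell gene Cd5 at 0.995 CPM in cNK and 67.0 CPM in remaining T cells. Cd28, another T cell gene, stood at 150 CPM in cNK and 148 CPM in ILC1-like cells against 391 CPM in remaining T cells. Each library gave 44 to 134 cNK cells and 74 to 218 ILC1-like cells. In summed cells, a gene in fewer cells and less RNA per cell cannot be told apart, so shares of cells are given beside the levels.

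The 8 members together were highest in cNK cells, at 2304 ± 255 CPM (mean ± SD of plain CPM, n = 8 libraries). They followed at 610 ± 221 CPM in memory-like CD8 T cells, 477 ± 85.9 CPM in gamma delta T cells, 191 ± 22.5 CPM in remaining T cells, 170 ± 61.4 CPM in ILC1-like cells, 128 ± 17.8 CPM in NKT-like cells and 51.6 ± 20.6 CPM in CD4 T cells. Naive-like CD8 T cells stood at 4.01 ± 2.97 CPM. B cells and endothelial cells, which should lack these receptors, held 4.22 CPM (2.01 to 11.6 over libraries) and 2.41 ± 1.37 CPM. The level of naive-like CD8 T cells was thus that of this background. Both background classes were gated on no UMI of the NK and CD3 gate genes. That leaves out cells with free RNA of those genes, so the background may be too low. The ranges over libraries did not overlap between cNK cells and any other class, whereas those of memory-like CD8 and gamma delta T cells overlapped. ILC1-like cells (65.2 to 245 CPM) overlapped both NKT-like cells (107 to 150 CPM) and remaining T cells (169 to 225 CPM), which did not overlap each other.

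**Figure D1:**
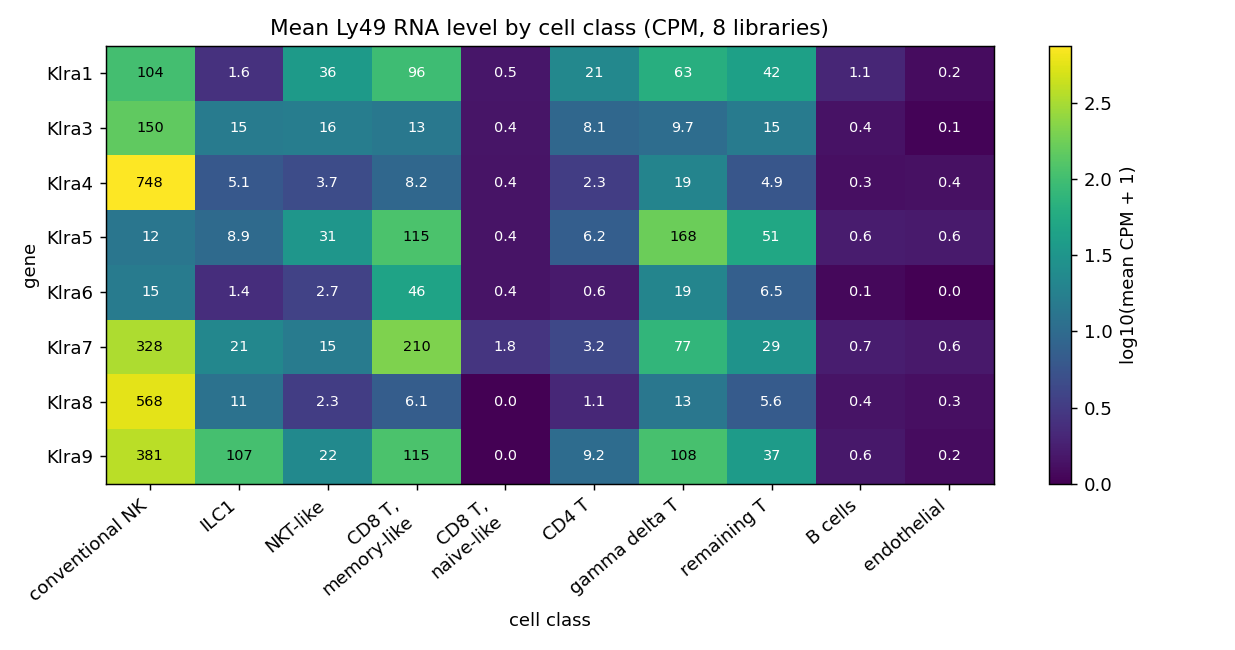
Mean CPM over 8 libraries of each Ly49 gene (rows) in each lymphocyte class and in B and endothelial cells as background (columns), with the value printed in each cell and color as log10 of the mean CPM plus 1. Activating Klra4 and Klra8 lead in conventional NK cells (748 and 568 CPM) and are at most 18.8 CPM in every other class shown, while Klra9 leads in ILC1-like cells and Klra7 in memory-like CD8 T cells.

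In cNK cells both activating genes led. Per kilobase of the longest annotated transcript, Klra4 stood at 601 CPM per kb, Klra8 at 482, Klra9 at 298, Klra7 at 297, Klra3 at 121, Klra1 at 62.1, Klra6 at 13.0 and Klra5 at 9.67. A 3' library counts molecules near their ends, so counts need not scale with transcript length. The order of the members was the same in plain CPM. Per kb, neighbours in this order overlapped in their range over libraries, except Klra7 with Klra3 and Klra1 with Klra6. Klra4 and Klra8 gave 57.0 ± 2.43% of all Ly49 UMIs of cNK cells.

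The leading genes were high in each library of cNK cells. Klra4 lay at 739, 677, 943 and 777 CPM in Control replicates 1 to 4 and at 683, 747, 628 and 792 CPM in BG replicates 5 to 8. Klra8 lay at 837, 437, 589 and 587 CPM in Control and at 479, 536, 461 and 615 CPM in BG. Control replicate 1 was the highest for Klra8 and Control replicate 3 for Klra4, and groups overlapped for both.

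Among the inhibitory genes, Klra7 lay at 360, 198, 225 and 391 CPM in Control and at 431, 435, 290 and 292 CPM in BG cNK cells. Klra9 lay at 487, 375, 451 and 335 CPM in Control and at 288, 334, 331 and 443 CPM in BG. The 2 highest Klra7 values were in BG and the 3 lowest Klra9 values too, and the groups overlapped for each gene. Klra3 ranged from 124 to 198 CPM, Klra1 from 77.3 to 175 CPM and Klra6 from 3.99 to 27.6 CPM over the 8 libraries.

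Klra5 was the member closest to absent in cNK cells. It had 3, 5, 8 and 0 UMIs in Control replicates 1 to 4 and 0 UMIs in each BG library, all of them from 6 cells. In BG libraries 0 counts allow up to 3 counts, a limit of 7.69 to 13.7 CPM per library that covers counting error only.

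To compare shares of cells at equal depth, each cell was thinned to 1500 UMIs, and shallower cells were left out (51 Control and 31 BG cNK cells). A Ly49 UMI was then found in 87.4 ± 2.69% of cNK cells (93.1 ± 1.82% before thinning, at a median of 2338 UMIs per cell). B cells, at a median of 1781 UMIs, gave 0.613 ± 0.424% thinned and 0.889 ± 0.662% unthinned. By gene the thinned shares of cNK cells were 46.2% for Klra4, 42.2% for Klra8, 33.8% for Klra9, 30.8% for Klra7, 15.4% for Klra3, 10.0% for Klra1, 1.98% for Klra6 and 0.793% for Klra5. Unthinned, 6.68% of cNK cells held no Ly49 gene, 19.6% held 1, 28.7% held 2, and 45.1% held 3 or more, up to 6 in 1 cell. The number of members detected thus differed between single cells, and at this depth a member that was not detected need not be absent.

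ILC1-like cells, the liver-resident counterparts of NK cells, had mostly 1 member of the family. Klra9 lay at 75.7, 89.1, 112 and 160 CPM in Control and at 47.4, 84.5, 186 and 98.4 CPM in BG libraries, and gave 63.6 ± 12.9% of their Ly49 UMIs. BG replicate 5 was the lowest and BG replicate 7 the highest, so the groups overlapped. A Ly49 UMI was found in 13.9 ± 3.99% of thinned ILC1-like cells (17.7 ± 4.43% unthinned). The activating genes gave 8.62 ± 8.87% of Ly49 UMIs there, and Klra4 was at 0 UMIs in 6 of 8 libraries.

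Both classes were compared in one fit with the library as a block, by edgeR's quasi-likelihood test. Of the 8 members, 6 passed the filter on low counts. Klra9 passed it in ILC1-like cells alone as well, and the other 5 entered through cNK cells, where they are high, so that their direction was fixed by the filter and their count is no support. The 6 were called higher in cNK cells, where 8.45% of 3385 tested genes were called higher, 10.3% lower and 18.7% in either direction. A gene was called at a Benjamini-Hochberg adjusted p under 0.05 with a log2 fold change beyond 0.5 in size. Klra4 differed most, by 7.15 on the log2 scale (SE 0.23, adjusted p = 1.81e-32), and Klra9 least, by 1.94 (SE 0.14, adjusted p = 6.50e-18). Klra8 followed at 5.91, Klra1 at 5.62, Klra7 at 4.32 and Klra3 at 3.39, and each of the 6 was higher in 8 of 8 libraries. As ratios of pooled CPM these were 152-fold for Klra4, 63.0 for Klra1, 59.4 for Klra8, 20.3 for Klra7, 10.1 for Klra3 and 3.75 for Klra9. Klra6 (27 UMIs in cNK and 3 in ILC1-like cells) and Klra5 (16 and 22 UMIs) were too low to be tested, and Klra5 was the 1 member whose pooled level was not higher in cNK cells, with a ratio of 0.921 (0.452 to 1.84). The pooled ratio of Klra6 was 11.4 (3.51 to 58.7), with exact 95% intervals that cover counting error only.

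**Figure D2:**
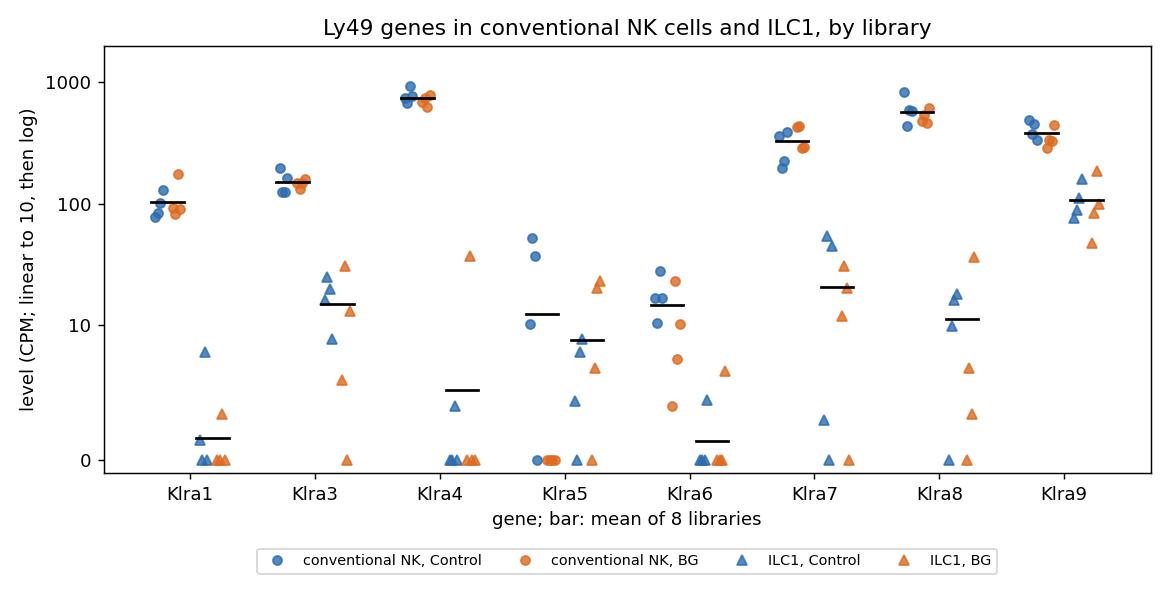
CPM of each Ly49 gene in conventional NK cells and ILC1-like cells, with 1 point per library, Control and BG in separate colors and CPM on a symmetric log axis. Every library of conventional NK cells lies above every ILC1-like library for Klra4 and Klra8, and the Klra9 points of both classes come closest among the 6 tested genes.

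Other receptors of the complex were not higher in cNK cells as a group. Of 13 tested, 3 were called higher and 3 lower, with a median of -0.23 on the log2 scale. Klrg1, an inhibitory receptor of mature NK cells, was higher by 3.95 and Klri2 by 1.97 on the log2 scale, while Klrb1b was lower by a log2 difference of -1.83 and Klrc1 (NKG2A, which reads Qa-1) of -1.09. Klrb1c, a gate gene that encodes NK1.1, differed by 0.00. Of 12 adaptor and signalling genes, 2 were called higher and 1 lower. Syk (1.15) and Fyn (at 1.32) were higher in cNK cells and Zap70 (-1.08) lower, and Tyrobp, at 2886 and 2399 TMM-scaled CPM, differed by 0.28. Of 11 tested transcription factors of NK cells, 3 were called higher and 4 lower. Zeb2 was higher by 5.30, whereas Tox (-1.46) and Id2 (-0.51) were lower, and Eomes and Rora are gate genes. Of the effector genes, Gzma (1.96) and Prf1 (2.26) were higher in cNK cells and Tnfsf10, the death ligand TRAIL, was lower (-4.00). Of the 3 MHC class I ligand genes, B2m was called lower in cNK cells (-0.52), and H2-K1 (-0.36) and H2-D1 (-0.19) stayed within the fold threshold.

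T cells used the family differently from cNK cells. Klra4 and Klra8 gave 2.09 ± 2.40% of the Ly49 UMIs of memory-like CD8 T cells, 4.63 ± 2.61% in NKT-like cells, 6.25 ± 5.37% in gamma delta T cells and 5.40 ± 2.60% in remaining T cells, against 57.0 ± 2.43% in cNK cells. The ratio of the members to each other thus differed from that of cNK cells in each of these classes. In memory-like CD8 T cells Klra7 led with 33.4 ± 7.01% of Ly49 UMIs. In gamma delta T cells Klra5 led with 35.1 ± 7.66%, and in CD4 T cells Klra1 led with 41.7 ± 9.59%. These leaders hold for the mean shares, not for every library. In memory-like CD8 T cells of BG replicate 5, Klra9 had 31 UMIs and Klra7 had 26. In those of BG replicate 6, Klra5 had 68 and Klra7 had 60. In gamma delta T cells of BG replicate 5, Klra1 had 22 UMIs and Klra5 had 20. In CD4 T cells of Control replicate 1, Klra3 had 13 and Klra1 had 12. NKT-like cells were split between Klra1 (28.1 ± 6.83%) and Klra5 (24.1 ± 7.20%), whose ranges over libraries overlapped.

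**Figure D3:**
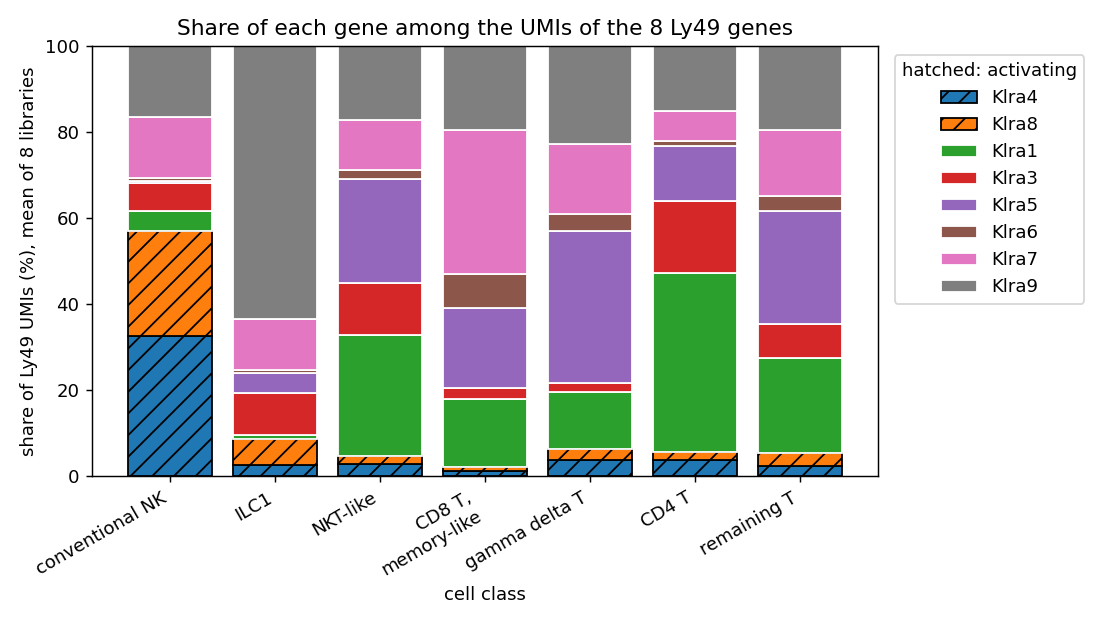
Share of each Ly49 gene among the Ly49 UMIs of a class (stacked to 100%, mean over 8 libraries), by lymphocyte class. The 2 activating genes fill 57.0% of the conventional NK bar and at most 8.62% of each other bar drawn, where naive-like CD8 T cells are left out and Klra9, Klra7, Klra5 or Klra1 takes the largest part.

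Memory-like CD8 T cells had the highest summed level among the T cell classes. Klra7 lay at 307, 134, 128 and 319 CPM in Control and at 62.8, 199, 220 and 309 CPM in BG libraries. Klra5 lay at 64.4, 84.6, 49.9 and 166 CPM in Control and at 55.6, 226, 106 and 168 CPM in BG. Klra7 thus varied about as much within each group as over all libraries, and the groups overlapped for both genes. Klra9 ranged from 64.0 to 181 CPM, Klra1 from 36.2 to 180 CPM and Klra6 from 28.9 to 63.0 CPM, while Klra3, Klra4 and Klra8 stayed at or below 28.5 CPM. Klra6, at a mean of 14.5 CPM in cNK cells (3.99 to 27.6 CPM), was at 46.0 ± 14.1 CPM here.

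Naive-like CD8 T cells held 18 Ly49 UMIs in 8 libraries, and no member passed the filter in them alone. The 5 members tested against memory-like cells thus entered through that class, which fixed their direction, and Klra3, Klra4 and Klra8 were not tested. The 5 were called higher in memory-like cells (edgeR, library as block), where 13.1% of 4743 tested genes were called higher, and their count is no support. Klra7 differed by 6.35 on the log2 scale (SE 0.23, adjusted p = 1.13e-28). Klra9 had no UMI in naive-like cells, which makes it at least 153-fold higher in memory-like cells against a floor of 3 counts over the 8 libraries. Klra5, Klra1 and Klra6 each had 2 UMIs in naive-like cells, and their pooled ratios were 219 (60.2 to 1815), 195 (53.7 to 1621) and 94.2 (25.7 to 784), with exact 95% intervals. Each of the 5 was higher in 8 of 8 libraries.

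A thinned share of 41.9 ± 10.1% of memory-like CD8 T cells held a Ly49 UMI (50.9 ± 10.7% unthinned). Of the 28 pairs of members, 21 were found together in more cells than the product of their single shares gives, with a median ratio of 1.45. Klra1 and Klra7 were found together 2.16 times and Klra6 and Klra7 2.25 times as often, in 8 of 8 libraries each. In cNK cells 16 of 28 pairs lay above the product with a median ratio of 1.05, and Klra4 and Klra8 were found together in 33.1 ± 4.58% of cells against 27.9% (ratio 1.19, 8 of 8 libraries). Other pairs lay below it there, such as Klra3 with Klra9 (ratio 0.78, above in 0 of 8 libraries) and Klra1 with Klra3 (0.56, 2 of 8). The counts of pairs include pairs seen in few cells. Cells of differing depth raise such ratios, and the cells of a library share their source, so these are descriptions with no test.

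Cells with a Ly49 UMI were compared with the others of the class, again as a description, for genes picked after their values had been seen. In memory-like CD8 T cells (512 with and 502 without, at medians of 3016 and 3510 UMIs), Tyrobp stood at 1181 and 142 CPM, Fcer1g, the Fc receptor gamma chain, at 1424 and 153 CPM, and Gzma at 3113 and 495 CPM. Cd8b1, the beta chain of CD8, stood at 94.3 CPM with and 533 CPM without, although Cd8a was at 638 and 372 CPM. Il7r, the survival cytokine receptor of memory T cells, stood at 113 and 316 CPM. Each of these differences had the same direction in 8 of 8 libraries. Cells with a Ly49 UMI were thus lower in Cd8b1 and Il7r than the rest, and the name memory-like stands for the gate alone. Both adaptor genes were thus higher in cells with a Ly49 UMI, in a class whose activating members stood at 8.16 CPM (Klra4) and 6.13 CPM (Klra8).

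NKT-like cells (7586) had low levels of every member. Klra1 lay at 38.7, 44.1, 25.9 and 33.5 CPM in Control and at 29.9, 39.6, 48.6 and 24.0 CPM in BG, and Klra5 at 30.6, 27.6, 49.9 and 28.3 CPM in Control and at 14.4, 21.6, 35.1 and 42.2 CPM in BG. Groups overlapped for both. A Ly49 UMI was found in 10.5 ± 1.24% of thinned cells (14.7 ± 2.21% unthinned). Against CD4 T cells 5 members were tested, and Klra4, Klra6 and Klra8 were too low. Klra1 passed the filter in CD4 T cells alone as well, whereas Klra3, Klra5, Klra7 and Klra9 entered through NKT-like cells, so that their count is no support. The 5 were called higher in NKT-like cells (edgeR, library as block), where 2.12% of 7977 tested genes were called higher. Klra5 differed by 2.17 (SE 0.23, adjusted p = 1.11e-09), Klra7 by 2.02 and Klra9 by 1.25. Klra3 (0.81, SE 0.23, adjusted p = 0.0148) and Klra1 (0.73, SE 0.16, adjusted p = 0.00111) differed least. The call of Klra3 was lost without Control replicate 3 (0.67, adjusted p = 0.0608), BG replicate 7 (0.70, 0.0641) or BG replicate 8 (0.75, 0.0540), and that of Klra1 without the block (adjusted p = 0.0515).

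The NKT-like gate takes T cells with no Cd8a or Cd8b1 UMI. It accepts Klrb1c, an NK cell gene, when Cxcr6 is found too, beside Zbtb16 or the Trav11 genes. The cells with a Ly49 UMI (1118 of 7586) differed from the rest. Gzma stood at 3195 CPM with and 289 CPM without a Ly49 UMI, Tyrobp at 928 and 142 CPM, and Klrd1 (CD94) at 582 and 187 CPM. Zbtb16, the NKT cell transcription factor PLZF, stood at 114 CPM with and 174 CPM without, and Rora at 79.1 and 168 CPM. All 5 had the same direction in 8 of 8 libraries. In remaining T cells (1650 with and 7365 without) Gzma stood at 4129 and 488 CPM.

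Gamma delta T cells had the highest Klra5 of all classes. It lay at 168, 134, 152 and 193 CPM in Control and at 102, 284, 174 and 140 CPM in BG libraries. Klra9 lay at 99.0, 117, 78.9 and 150 CPM in Control and at 71.7, 124, 130 and 95.7 CPM in BG. Groups overlapped for both, and BG replicate 5 was the lowest for each. A Ly49 UMI was found in 32.0 ± 4.16% of thinned cells, and Klra5 and Klra9 were found together 1.99 times as often as the product of their shares (8 of 8 libraries). In cells with a Ly49 UMI (381 of 977), Tyrobp stood at 1568 CPM against 391 CPM in the rest, and Tcf7 at 42.7 against 155 CPM.

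Klra4 was uneven in gamma delta T cells. It had 7, 1, 0 and 0 UMIs in Control and 9, 17, 17 and 1 UMIs in BG libraries, which is 4.39 ± 6.70 and 33.2 ± 21.4 CPM. These 52 UMIs came from 9 cells, of which 7 also held Klra8, and the gene was too low for the test. Whether these cells were NK cells with a Trdc transcript was not tested, and Trdc stood at 60.0 CPM in cNK cells.

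**Figure D4:**
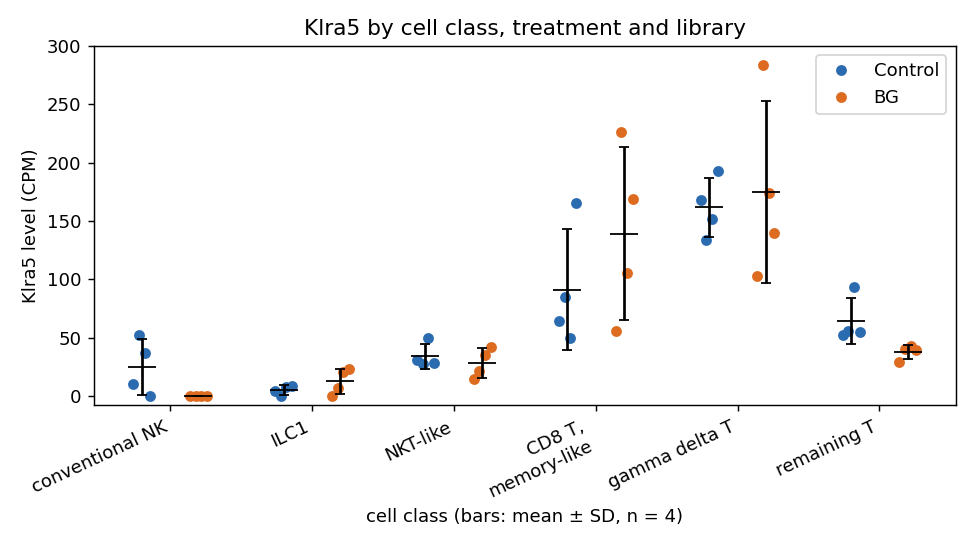
CPM of Klra5 by lymphocyte class, with 1 point per library and Control and BG side by side. CD4 T cells, naive-like CD8 T cells and the NK lineage as a whole are not drawn. Klra5 is highest in gamma delta T cells (102 to 284 CPM) and memory-like CD8 T cells (49.9 to 226 CPM), and Control replicate 3 stands above the other Control libraries in NKT-like and remaining T cells.

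The comparison of BG with Control asked whether treatment moved these receptors in any class. No member was called in cNK (6 tested), ILC1-like (1), NK lineage (6), NKT-like (6), memory-like CD8 (5), CD4 (1) or gamma delta T cells (4) by edgeR, and none was high enough to be tested in naive-like CD8 T cells. DESeq2 called 0 members in each of these classes too. In the same fits 2.79% of tested genes were called in cNK cells, 0.918% in ILC1-like cells, 1.79% in the NK lineage, 2.48% in NKT-like cells, 0.947% in memory-like CD8 T cells, 0.658% in naive-like CD8 T cells, 2.26% in CD4 T cells and 1% in gamma delta T cells. An unadjusted p under 0.05 was found for 0 members in cNK, ILC1-like, NKT-like, CD4 and gamma delta T cells, 1 in memory-like CD8 T cells and 4 in the NK lineage. The share of all tested genes at that threshold was 15.3% in cNK, 8.59% in ILC1-like, 16.4% in NKT-like, 13.3% in CD4 T, 9.15% in gamma delta T and 10.9% in memory-like CD8 T cells, and 13.1% in the NK lineage. A p that misses the threshold does not show that levels were alike, and read against these shares 0 calls among 1 to 6 tested members is no result about the family.

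**Figure D5:**
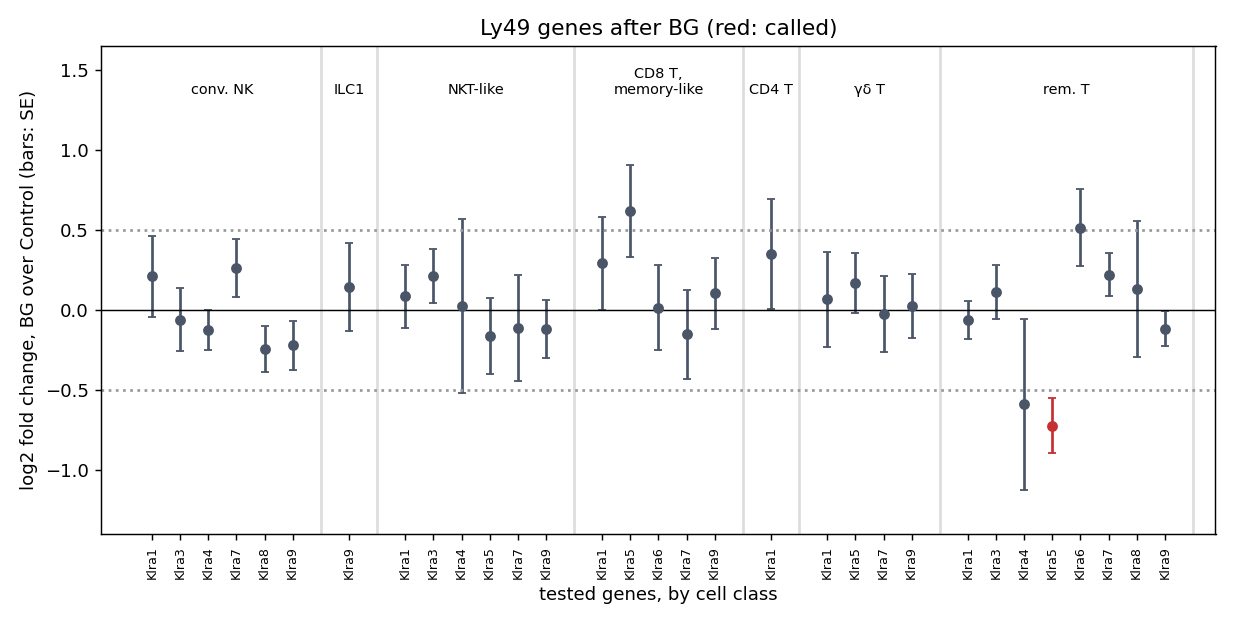
Log2 fold change of BG over Control (edgeR, TMM) for each tested Ly49 gene by class, with bars of 1 standard error and called genes in red. The NK lineage as a whole is not drawn. Klra5 in remaining T cells (-0.73) is the called point, and the conventional NK points lie on both sides of 0. Dotted lines mark the fold threshold of 0.5 in either direction.

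In cNK cells the fitted BG differences were small and of both signs. They were 0.21 for Klra1 (SE 0.25), -0.06 for Klra3 (SE 0.20), -0.13 for Klra4 (SE 0.13), 0.26 for Klra7 (SE 0.18), -0.24 for Klra8 (SE 0.14) and -0.22 for Klra9 (SE 0.15), with adjusted p from 0.432 to 0.912. The median over the 6 was -0.09, beside -0.03 over all 3159 tested genes. The summed family was at 2394 ± 322 CPM in Control and 2214.5 ± 163 CPM in BG cNK cells. In the same cells 5 of 5 tested cell cycle genes were called higher after BG, where 2.79% of 3159 tested genes were called in either direction. The granule protease Gzmb was higher by 0.73 (SE 0.14, adjusted p = 0.00238 by edgeR).

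Klra9 was the 1 member tested in ILC1-like cells, and its difference was 0.14 (SE 0.27, adjusted p = 0.938). In these cells 4 of 6 tested interferon genes were called higher, where 0.918% of 3702 tested genes were called in either direction. The called interferon genes included Ifi27l2a, at 17.8 ± 11.5 CPM in Control and 145 ± 81.3 CPM in BG (adjusted p = 3.02e-05 by edgeR). Whether the BG effect differed between cNK and ILC1-like cells was tested as an interaction, which called no member, and 3 of 4187 genes (0.0717%) in all. An unadjusted p under 0.05 was found for 1 member, Klra4, with a difference of -3.25 (SE 1.06, adjusted p = 0.368 by edgeR). DESeq2 was not run on this term. It rested on 11 Klra4 UMIs in 2 ILC1-like cells of BG replicate 6, without which it was 1.31.

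In the NK lineage as a whole the 6 tested members were all above 0. Klra1 stood at 22.2, 27.8, 44.4 and 46.3 CPM in Control and at 65.0, 31.6, 73.3 and 59.4 CPM in BG, a difference of 0.86 (SE 0.27, adjusted p = 0.102). Klra7 differed by 0.62 (SE 0.19, adjusted p = 0.0829), Klra3 by 0.45, Klra4 by 0.36, Klra8 by 0.29 and Klra9 by 0.15, and no member passed. Their median was 0.41, beside -0.0037 over all 5852 tested genes. The share of cNK cells among NK lineage cells, which carry most of this RNA, was 34.0 ± 7.27% in Control and 42.4 ± 4.49% in BG (n = 4 each, two-sided exact permutation test p = 0.143, adjusted over 8 tests 0.381). The part of this share in the differences of the members was not tested. Hepatocyte genes summed to 84.5 to 192 CPM in Control and 84.3 to 777 CPM in BG NK lineage cells, and their part was not tested. Without the filter on low counts Klra7 (0.62, adjusted p = 0.00214) and Klra1 (0.85, adjusted p = 0.0136) were called. Klra7 was also called without Control replicate 4 (0.81), Klra1 without BG replicate 6 (1.08), and Klra4 with at most 10% mitochondrial UMIs (0.88), and over all alternatives adjusted p ran from 0.00214 to 0.420 for Klra7.

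In memory-like CD8 T cells Klra5 was 0.62 higher (SE 0.29, unadjusted p = 0.0412, adjusted p = 0.433 by edgeR), and the other 4 tested members lay between -0.15 and 0.29. NKT-like cells ranged from -0.16 (Klra5) to 0.21 (Klra3) and gamma delta T cells from -0.03 (Klra7) to 0.17 (Klra5). In CD4 T cells Klra1 differed by 0.35 (SE 0.34). Klra5 was too low to be tested in CD4 T cells, at 2.94 ± 2.41 TMM-scaled CPM in Control and 9.96 ± 5.55 in BG. Without the filter on low counts Klra4 was called in gamma delta T cells (2.46, adjusted p = 0.000516), on the 9 cells described for that gene. Klra4 was called there as well when Control replicate 1 (4.46, adjusted p = 0.0186) or BG replicate 8 (2.91, adjusted p = 0.00148) was left out. Klra5 was called lower in cNK cells without that filter (adjusted p = 0.0010 by edgeR), where every BG library was at 0 UMIs and the 16 UMIs of Control lay in 6 cells.

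Remaining T cells, a class added after the data had been seen, gave the 1 call. Klra5 lay at 52.2, 55.7, 93.6 and 54.7 CPM in Control and at 29.5, 40.0, 42.5 and 39.1 CPM in BG, and the groups did not overlap. It fell by 0.73 on the log2 scale (SE 0.17, adjusted p = 0.0272 by edgeR, 1 of 8 tested members, with 2 at an unadjusted p under 0.05, as were 14.8% of all tested genes), where 2.29% of 9893 tested genes were called, 0.283% lower, and the groups of 8.78% did not overlap. DESeq2 called it as well (adjusted p = 0.00331). The other 7 members were not called and lay between -0.59 (Klra4, SE 0.53) and 0.51 (Klra6, SE 0.24). The call was lost at 10% mitochondrial UMIs (-0.37, adjusted p = 0.495), with 0 other-lineage UMIs (-0.65, 0.0690), with no limit on them (-0.65, 0.132) and with a narrower NKT-like gate (-0.55, 0.103). It was also lost without Control replicate 3 (-0.48, 0.0685), BG replicate 5 (-0.65, 0.114), BG replicate 6 (-0.73, 0.0575) or BG replicate 8 (-0.72, 0.0560). Neutrophil genes (S100a8, S100a9, Retnlg; 3 of 3 called lower) summed to 115 to 554 CPM in Control and 5.04 to 79.2 CPM in BG libraries of this class, and their part in the difference was not tested.

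At equal depth the share of cells with a Ly49 UMI passed the test in none of the 4 classes tested. A Ly49 UMI was found in 87.2 ± 3.65% of Control and 87.6 ± 1.85% of BG cNK cells (n = 4 each, two-sided exact permutation test p = 0.914, adjusted over 8 tests 0.971). The values were 13.4 ± 3.85 and 14.4 ± 4.66% for ILC1-like cells (exact p = 0.743), 10.7 ± 0.713 and 10.3 ± 1.74% for NKT-like cells (exact p = 0.686) and 41.3 ± 11.2 and 42.6 ± 10.5% for memory-like CD8 T cells (exact p = 0.886). A thinned cNK cell held 1.81 ± 0.245 Ly49 genes in Control and 1.82 ± 0.0412 in BG (exact p = 0.971). The smallest p that 4 against 4 libraries allow is 0.0286.

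No gene of the lists for other receptors, adaptors or ligands was called after BG by edgeR. Of the other receptors of the complex, 0 of 13 tested in cNK, 0 of 12 in ILC1-like, 0 of 12 in NKT-like and 0 of 10 in memory-like CD8 T cells were called. The MHC class I ligand genes B2m, H2-D1 and H2-K1 were tested in each of these classes and not called, nor was any of the 11 or 12 adaptor and signalling genes tested. Of all tested genes, 2.79% were called in cNK, 0.918% in ILC1-like, 2.48% in NKT-like and 0.947% in memory-like CD8 T cells. Read against these shares, 0 calls in lists of this size are no result about them. At an unadjusted p under 0.05 stood 1 or 2 receptor genes, 1 adaptor gene and 1 ligand gene in each class, the last being B2m, with differences of 0.28 to 0.32 and adjusted p from 0.157 to 0.437 by edgeR. Of all tested genes, 8.59% to 16.4% by class stood there too. Interferon genes were called higher in 9 of 10 tested in NKT-like cells and 5 of 8 in memory-like CD8 T cells, and Gzmb rose by 0.79 and 0.86 there. The list medians were 1.28 and 1.07 for interferon genes and -0.05 and 0.10 for the Ly49 members, beside -0.01 over all tested genes of either class.

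Over the 56 sums of 7 classes and 8 libraries, the genes whose log2(CPM + 1) followed the summed family most closely were Gzma (Pearson r = 0.938), Lrrk1 (0.917), Nkg7 (0.914), Actg1 (0.911), Ccl5 (0.910), Anxa2 (0.907), Klre1 (0.904) and Tm6sf1 (0.902), out of 7325 compared. Sums of one library share its depth, and Klre1 and Ccl5 are gate genes, so these are descriptions.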

How the data were processed

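Single cell RNA libraries of liver leukocytes from 4 Control and 4 BG mice (Chromium 3' v3.1 chemistry) were analysed as the UMI counts per gene and barcode that the authors deposited, 1 matrix per library. According to the authors' methods, reads were aligned to mm10 with introns included, and the file headers name Cell Ranger 6.1.2. No doublet caller was run, and free RNA was not subtracted.

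Cells with 200 to 2500 genes and at most 30% mitochondrial UMIs were kept. Classes were gated on marker UMIs, a class taking at most 1 UMI of other lineages and a T cell at least 2 CD3 or Trac UMIs. UMIs were summed per library and class (at least 10 cells) and tested with edgeR 4.0.16 (R 4.3.3) by the quasi-likelihood test after filterByExpr and TMM scaling, with the library as a block between classes, which come from the same mouse. Genes were called at a Benjamini-Hochberg adjusted p under 0.05 with a log2 fold change beyond 0.5 in size. DESeq2 1.42.0, RLE scaling, no filter, other gates and each library left out were alternatives. Shares of cells were compared after thinning to 1500 UMIs with exact permutation tests (scipy 1.17.1). The edgeR and thinning steps were tested on simulated data. Intervals and floors (3 counts) cover counting error only.

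Every member was described in every class. From the gene lists, examples were to be up to 6 genes per class in order of adjusted p, and other genes named with values were chosen after their values were seen. The members and lists were chosen with earlier results of these data known. Libraries came from separate mice, 1 each.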

Additional observations from a re-analysis of the deposited data

Results flagged for a closer look

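In each group of 4 libraries the highest and lowest value of every member tested between BG and Control in that class was checked with Dixon's test at its 95% critical value. Members too low to be tested in a class were not checked there. Chance marks about 1 in 20 groups, and 4 of 74 were marked here. Klra1 in conventional NK cells stood at 175 CPM in BG replicate 7, where the other BG libraries lay between 82.5 and 91.9 CPM. Klra5 stood at 49.9 CPM in NKT-like cells of Control replicate 3, with the other Control libraries between 27.6 and 30.6 CPM. The same library stood at 93.6 CPM for Klra5 in remaining T cells, with the others between 52.2 and 55.7 CPM. Klra6 in remaining T cells stood at 5.67 CPM in BG replicate 7, below the other BG libraries at 8.21 to 8.23 CPM. No cause of these values was tested.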

How the results depend on the processing

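The members called after BG were counted again under each alternative. Without the filter on low counts 2 were called in the NK lineage, 1 in cNK and 1 in gamma delta T cells, and at 10% mitochondrial UMIs 1 in the NK lineage. In remaining T cells 0 were called at 10% mitochondrial UMIs, with 0 other-lineage UMIs, with no limit on them and with the narrower NKT-like gate. With 1 library left out the count ran from 0 to 1 in the NK lineage, gamma delta T and remaining T cells, and the libraries are named with the results. Most folds were near 0, and no cause of a change of sign was tested. Without the filter on low counts the sign turned for Klra3 in cNK cells (0.00304) and Klra6 in memory-like CD8 cells (-0.00270). With 0 other-lineage UMIs the sign turned for Klra9 in ILC1-like cells (-0.0645), Klra9 in memory-like CD8 cells (-0.0254), Klra9 in gamma delta T cells (-0.0264) and Klra8 in remaining T cells (-0.0924). With an Ncr1 UMI required the sign turned for Klra9 in ILC1-like cells (-0.10). With DESeq2 the sign turned for Klra7 in NKT-like cells (0.0134). At 10% mitochondrial UMIs the sign turned for Klra7 in NKT-like cells (0.24), Klra7 in memory-like CD8 cells (0.14) and Klra1 in remaining T cells (0.10). With no limit on other-lineage UMIs the sign turned for Klra4 in NKT-like cells (-0.0420), Klra5 in NKT-like cells (0.0347), Klra9 in NKT-like cells (0.0469), Klra9 in memory-like CD8 cells (-0.0230) and Klra7 in gamma delta T cells (0.0708). With the narrower NKT-like gate the sign turned for Klra1 in NKT-like cells (-0.0436), Klra5 in NKT-like cells (0.10), Klra9 in NKT-like cells (0.0125) and Klra1 in remaining T cells (0.0543). At up to 5000 genes per cell the sign turned for Klra1 in gamma delta T cells (-0.0103), Klra7 in gamma delta T cells (0.0276) and Klra9 in gamma delta T cells (-0.00696). With at least 3 CD3 UMIs the sign turned for Klra9 in gamma delta T cells (-0.0465).

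With 1 library left out, folds of both signs were found in cNK cells for Klra1 (-0.12 to 0.39) and Klra3 (-0.15 to 0.12). In ILC1-like cells the ranges were Klra9 (-0.33 to 0.37). In NKT-like cells the ranges were Klra1 (-0.14 to 0.26), Klra4 (-0.31 to 0.68), Klra5 (-0.38 to 0.0705), Klra7 (-0.36 to 0.37) and Klra9 (-0.26 to 0.0547). In memory-like CD8 cells the ranges were Klra1 (-0.14 to 0.61), Klra6 (-0.19 to 0.20), Klra7 (-0.47 to 0.13) and Klra9 (-0.0758 to 0.38). In gamma delta T cells the ranges were Klra1 (-0.20 to 0.34), Klra5 (-0.10 to 0.29), Klra7 (-0.33 to 0.17) and Klra9 (-0.13 to 0.19). In remaining T cells the ranges were Klra1 (-0.14 to 0.0208), Klra4 (-0.98 to 0.0438) and Klra8 (-0.49 to 0.41). For the difference of the BG effect between cNK and ILC1-like cells they were Klra3 (-0.25 to 1.22), Klra4 (-4.54 to 1.31), Klra7 (-0.47 to 1.30), Klra8 (-1.64 to 0.40) and Klra9 (-0.66 to 0.10). Thinned to 1000 UMIs, BG minus Control was -0.800 percentage points for the share of cNK cells with a Ly49 UMI and -0.0366 for Ly49 genes per cNK cell, and -0.0651 and -0.00362 in ILC1-like cells. Unthinned, it was -0.00455 genes per ILC1-like cell, and 0.352 percentage points and 0.00336 genes in NKT-like cells. At up to 5000 genes per cell it was -0.00419 genes per cNK and -0.00516 per memory-like CD8 cell. The share of cNK among NK lineage cells differed by 14.6 percentage points at 10% mitochondrial UMIs (exact permutation p = 0.0286, the smallest 4 against 4 allows). With 1 library left out, differences of both signs were found for the share in cNK cells (-1.44 to 1.20 percentage points), Ly49 genes per cell in cNK cells (-0.0923 to 0.0780), the share in ILC1-like cells (-0.356 to 3.23 percentage points), Ly49 genes per cell in ILC1-like cells (-0.00996 to 0.0334), the share in NKT-like cells (-1.05 to 0.169 percentage points), the share in memory-like CD8 cells (-2.29 to 6.40 percentage points) and Ly49 genes per cell in memory-like CD8 cells (-0.0528 to 0.110).

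In the class comparisons the library was the block, since both classes of a library come from 1 mouse. Without that replicate block Klra1 in NKT-like against CD4 T cells was at 0.74 (adjusted p = 0.0515), and no other call of a member was lost. No paired analysis was possible because the Control and BG groups share no replicate numbers. Depth limits the rare classes: 719 cNK and 867 ILC1-like cells over 8 libraries left Klra5 and Klra6 untested in both.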
